A study of Mus musculus with 4 samples.

Results

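The Hox genes described here are the homeobox transcription factor genes of the mouse HoxA, HoxB, HoxC and HoxD clusters, chosen by symbol alone: every probe set whose gene symbol is Hoxa, Hoxb, Hoxc or Hoxd followed only by a number. The rule found 34 of the 16492 probe sets tested, 10 of HoxA, 9 of HoxB, 6 of HoxC and 9 of HoxD. The RefSeq annotation lists 39 mouse genes of this name pattern, and Hoxa6, Hoxb7, Hoxc8, Hoxc11 and Hoxc12 were not analysed here. The clusters lie on mouse chromosomes 6 (HoxA), 11 (HoxB), 15 (HoxC) and 2 (HoxD). By paralog number, which gives a gene's place along its cluster, 12 of the genes measured carry numbers 1 to 4, 8 carry numbers 5 to 8 and 14 carry numbers 9 to 13.

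Hox genes encode homeodomain proteins that give cells positional identity, and their order along a cluster matches the order in which they are switched on in time and along the body axis. In the limb bud the genes at the 5′ end of HoxA and HoxD, which carry the highest numbers, are used in successive phases to pattern upper arm and thigh, forearm and shank, and hand and foot. Genes of HoxC differ between the limbs, with some used in the forelimb region and others in the hindlimb.

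The study asked how the human short stature gene SHOX, a homeobox gene that mice lack, changes gene expression in the limb. Whole fore- and hindlimbs of E12.5 mouse embryos were pooled, RNA of 2 to 4 littermates of 1 genotype was combined, and 4 Affymetrix whole-genome arrays were hybridised, 2 of wildtype and 2 of transgenic limbs. The transgenic embryos carried a human SHOXa cDNA under the promoter and enhancer of Col2a1, a collagen gene of cartilage, so that the transgene was aimed at cartilage-forming cells; the wildtype embryos were littermates without it, and both are given as strain C57BL/6, with founders derived from hybrid C57BL/6 x DBA/2 eggs and mated to C57Bl/6. The study raised more than 1 transgenic line, and which of them was used on the arrays is not given in the sources used here.

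Each array title ends in one of 2 suffixes, each shared by 1 wildtype and 1 transgenic array, and these are called experiment 1 and experiment 2 here, with no order in time implied. The design text names 2 hybridization experiments with separate RNA samples, and the suffixes are read here as those experiments, which the labels do not spell out; whether litters, exact developmental stage, dissection, RNA preparation or array handling differed between them cannot be told apart. Each experiment was run once, so that p-values for experiment 2 against experiment 1 measure the spread between the 2 arrays within an experiment and concern these 2 experiments alone. With 4 arrays in all, precision is limited by their number. The arrays had nearly the same median, between 7.81 and 7.85 log2 units, and correlated more within an experiment (r = 0.997 and 0.998 across all probe sets, which are not independent) than within a genotype (r = 0.987 and 0.986). Xist is the RNA that coats the inactive X chromosome of female cells. It was lower by 2.99 log2 units in the transgenic pools than in the wildtype pools, with the difference present in both experiments. The part of the sex of the pooled embryos in the values below was not tested. Between the genotypes, sex cannot be told apart from the transgene, because Xist split the arrays as genotype did. Because mice have no SHOX gene, no mouse probe set checks the transgene.

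Values are log2 expression values as deposited, 1 unit being a 2-fold difference, and are given for each experiment as wildtype first and transgenic next. The values of different genes come from different probes and are not set against each other. In bulk tissue such as this, fewer cells of a type and less RNA per cell cannot be told apart. The limb markers were at values between 6.95 and 10.52 for 7 limb mesenchyme genes, with Prrx1, a homeobox gene of limb mesenchyme, between 10.09 and 10.52, and the forelimb factor Tbx5 and the hindlimb factors Tbx4 and Pitx1 were all measured.

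**Figure D1:**
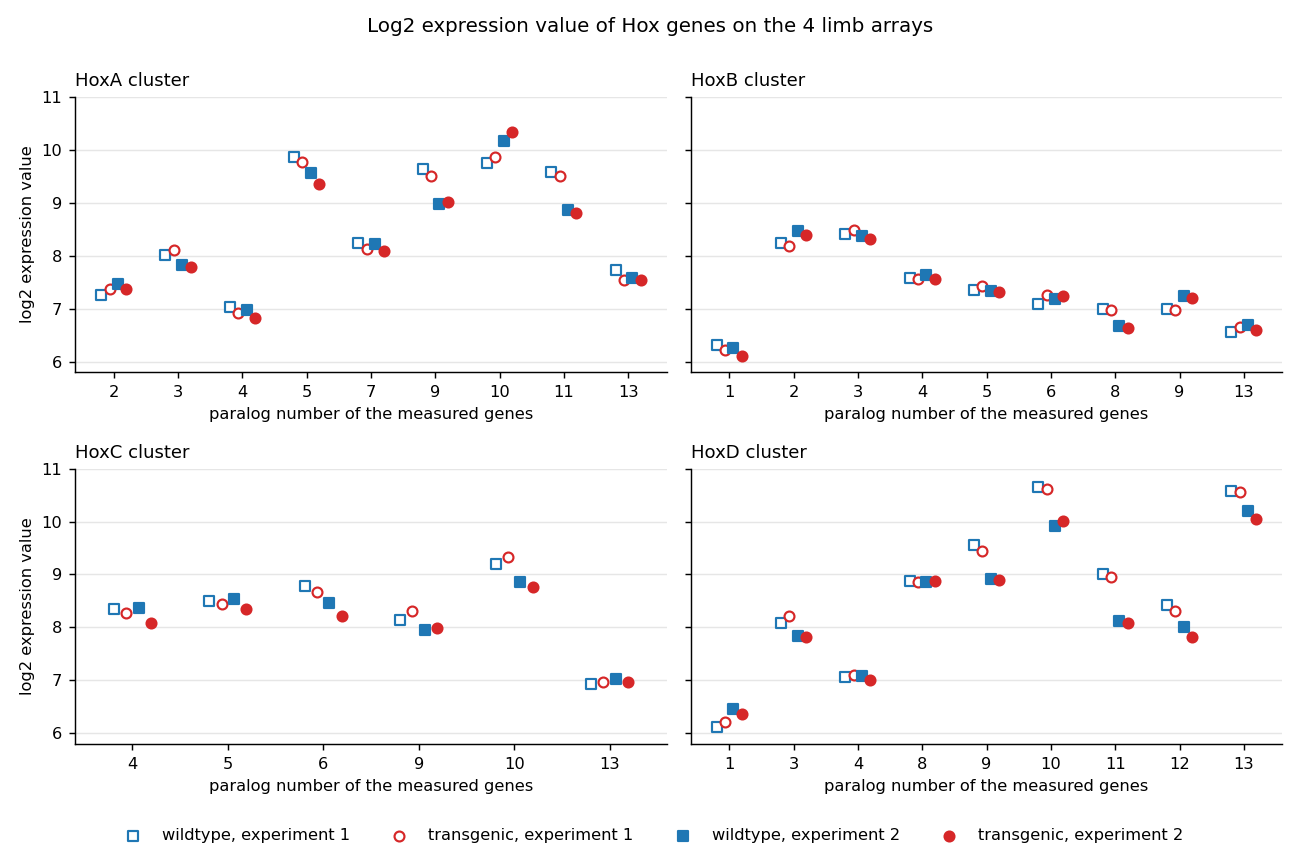
Log2 expression value of 33 of the 34 Hox genes (y axis, log2 units) by cluster (panels) and paralog number (x axis). Squares are wildtype and circles transgenic arrays, open symbols experiment 1 and filled symbols experiment 2, with 1 point for each array; for Hoxd11 both open symbols (9.001 and 8.950) lie above both filled ones (8.117 and 8.074), while for most genes of HoxB the 4 points lie close together.

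The Hox genes differed far more between the experiments than between the genotypes. Between the experiments 18 of the 34 genes (52.9%) passed an adjusted p of 0.05 in limma, against 36% of all 16492 probe sets, and between the genotypes 0 of 34 did, against 0% of all probe sets. That genotype fit has no term for the experiment, so its spread holds the gap between the experiments. For Hoxd11 the SE was 0.43, against 0.06 with the experiment as a block. With that block 0 of 34 passed as well, against 0.273% of all probe sets. Of the 18 genes, 14 fell and 4 rose from experiment 1 to experiment 2. The 14 that fell are 41.2% of the Hox genes, where 18.7% of all probe sets fell, and the 4 that rose are 11.8%, where 17.4% of all probe sets rose. The experiments did not overlap, with both arrays of experiment 2 below both of experiment 1, for 16 of the 34 genes (47.1%, against 34.5% of all probe sets), and in the opposite direction for 7 (20.6%, against 31.9%). The same 4 and 14 counts came from the rule of a log2 difference beyond 0.2 with an unadjusted p under 0.05, which 30.1% of all probe sets passed, 14.7% as higher and 15.4% as lower. With genotype as a second term the counts by adjusted p were again 14 lower and 4 higher, where 20.1% of all probe sets were lower and 19.1% higher (39.2% in all). In an analysis of variance without limma's moderated variance, 0 genes passed the adjusted threshold, and 10 lower and 3 higher genes passed the rule of 0.2 log2 units. The share of all probe sets in that fit is not given here, so these counts cannot be read against it.

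The fall was concentrated in the genes with high numbers. Among the 14 genes numbered 9 to 13, 9 fell and 2 rose, with a median difference of -0.45, against -0.06 for the 12 genes numbered 1 to 4 (2 fell, 2 rose), -0.05 for the 8 numbered 5 to 8 (3 fell, 0 rose) and -0.01 for all probe sets. By cluster the median was -0.44 in HoxD (6 of 9 fell, 1 rose), -0.16 in HoxC (3 of 6 fell), -0.07 in HoxA (4 of 10 fell, 1 rose) and 0.03 in HoxB (1 of 9 fell, 2 rose). These medians describe the genes and carry no test, and neighbouring Hox genes share regulation and so are not independent of each other. Signal also differed between these groups. Most genes numbered 9 to 13 lay above the 50th percentile of all probe sets, while most of HoxB and of numbers 1 to 4 lay below it. The part of signal level in these medians was not tested. The 9 measured genes of the 5′ ends of HoxA and HoxD that pattern the limb along its length had a median of -0.57 with 7 lower and 1 higher.

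**Figure D2:**
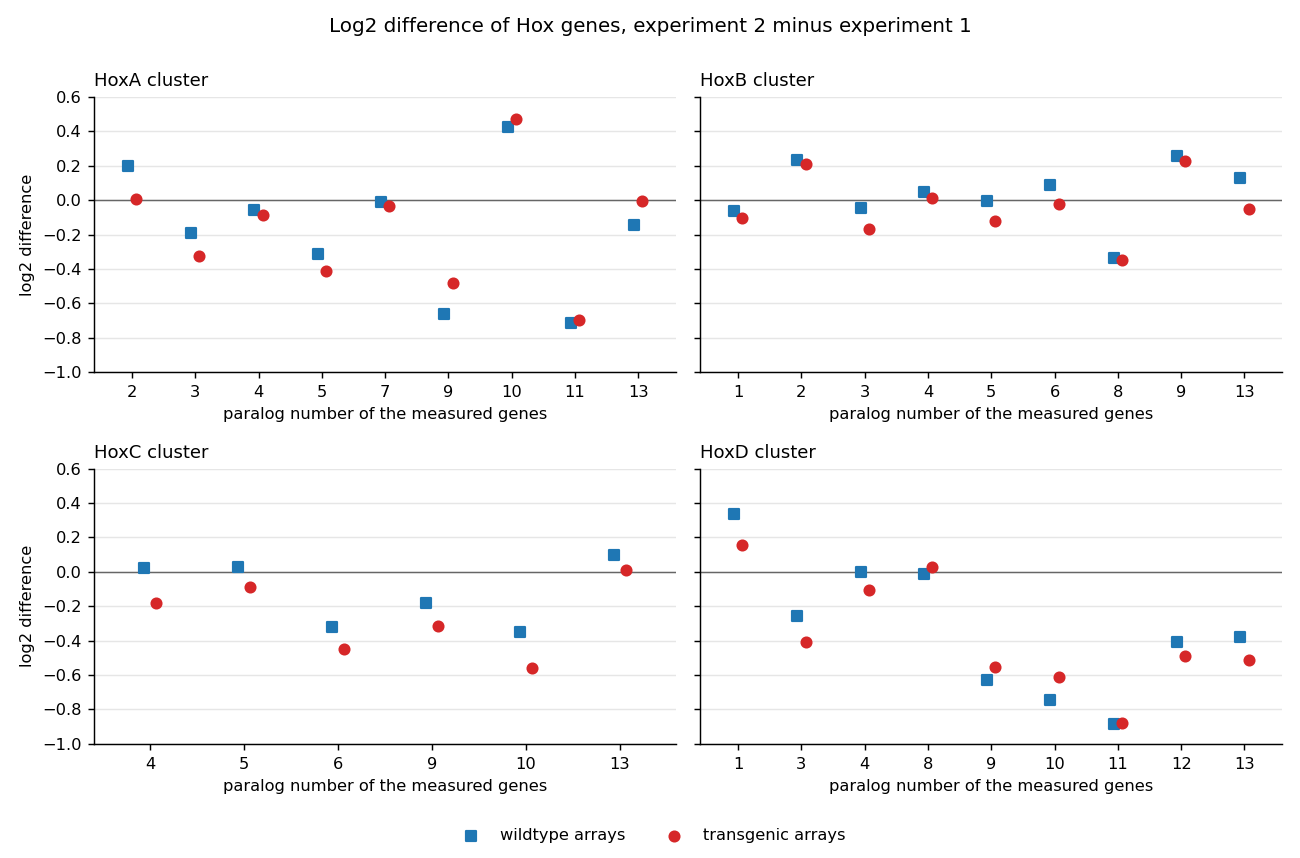
Log2 difference of 33 of the 34 Hox genes, experiment 2 minus experiment 1 (y axis, log2 units), by cluster (panels) and paralog number (x axis). Blue squares are the wildtype arrays and red circles the transgenic arrays; in HoxD the points lie near 0 at number 8 and below -0.3 from number 9 to number 13.

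The 5 promoter stretches printed next belong to the 4 Hox genes with the largest fall and to Hoxa10, the gene with the largest rise, so that the genes that moved apart can be read side by side. Each is the 250 bases before the most 5′ RefSeq transcription start in the table, on build GRCm38.p6, written 5′ to 3′ on the gene's strand, with ATTA or TAAT, the core that many homeodomain proteins recognise and its reverse complement, in capitals. The stretches are chr2:74679308-74679557 (plus strand) for Hoxd11, chr2:74691641-74691890 (plus strand) for Hoxd10, chr2:74697513-74697762 (plus strand) for Hoxd9, chr6:52245811-52246060 (minus strand) for Hoxa11 and chr6:52240855-52241104 (minus strand) for Hoxa10. For Hoxd10 that start lies inside a RefSeq gene model that begins further 5′.
Hoxd11: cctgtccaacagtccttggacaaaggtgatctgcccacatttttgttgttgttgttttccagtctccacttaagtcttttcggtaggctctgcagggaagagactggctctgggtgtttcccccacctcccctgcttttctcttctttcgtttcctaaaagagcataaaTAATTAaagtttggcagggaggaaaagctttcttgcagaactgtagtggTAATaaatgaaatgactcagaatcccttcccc
Hoxd10: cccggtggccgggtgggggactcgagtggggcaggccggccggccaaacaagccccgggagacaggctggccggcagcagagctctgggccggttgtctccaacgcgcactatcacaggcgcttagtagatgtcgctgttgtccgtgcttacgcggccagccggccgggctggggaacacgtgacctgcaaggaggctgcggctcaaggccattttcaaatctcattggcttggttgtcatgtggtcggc
Hoxd9: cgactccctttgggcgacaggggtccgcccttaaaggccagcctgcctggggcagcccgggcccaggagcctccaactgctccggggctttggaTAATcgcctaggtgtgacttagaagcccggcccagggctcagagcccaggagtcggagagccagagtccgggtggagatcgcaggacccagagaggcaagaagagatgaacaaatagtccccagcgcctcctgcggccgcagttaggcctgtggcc
Hoxa11: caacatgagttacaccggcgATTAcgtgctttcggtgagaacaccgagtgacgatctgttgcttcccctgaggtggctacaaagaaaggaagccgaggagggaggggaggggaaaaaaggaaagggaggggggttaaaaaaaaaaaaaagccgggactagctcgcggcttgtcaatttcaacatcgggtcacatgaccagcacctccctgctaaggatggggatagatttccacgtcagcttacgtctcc
Hoxa10: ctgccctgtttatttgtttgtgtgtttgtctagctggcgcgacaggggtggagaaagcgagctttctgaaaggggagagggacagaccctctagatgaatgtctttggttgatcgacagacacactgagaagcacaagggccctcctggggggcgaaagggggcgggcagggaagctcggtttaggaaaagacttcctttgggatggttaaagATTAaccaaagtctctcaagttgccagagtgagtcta
ATTA or TAAT stood 3 times in the stretch of Hoxd11, counting overlapping matches, 1 time each in those of Hoxd9, Hoxa11 and Hoxa10, and 0 times in that of Hoxd10. In the table's windows, from 250 bases before to 50 after a start, 18 of 23 windows of Hox genes (78.3%) held the core, against 58.0% of 32851 windows of all genes; the median was 1 match in both. The 23 windows cover 21 of the 34 genes, and the other 13 were not matched. Hoxd11 and Hoxa10 each had a further start, whose window held 2 matches of the core for Hoxd11 and 3 for Hoxa10. The counts of the printed stretches of these genes thus depend on the start chosen. TTTAT or ATAAA, the letters of a site of the highest-numbered Hox proteins and its reverse complement, stood in 9 of 23 (39.1%) against 40.0% of all. CG dinucleotides numbered 14 at the median in the Hox windows and 7 in all windows. A match of letters is a description of the sequence and not a binding site.

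Hoxd11, which with Hoxa11 shapes the forearm and shank in the mouse, had the largest difference of all Hox genes. Its values were 9.001 and 8.950 in experiment 1 and 8.117 and 8.074 in experiment 2. It fell by 0.88 log2 units (SE 0.06, limma adjusted p = 1.05e-06, n = 2 arrays per experiment), or 1.84-fold, by 0.88 in the wildtype and by 0.88 in the transgenic arrays. Hoxa11, its paralog in HoxA, was at 9.58 and 9.51 in experiment 1 and at 8.87 and 8.81 in experiment 2. That is a fall by 0.71 (SE 0.06, limma adjusted p = 4.34e-06), or 1.63-fold. For both genes of number 11 measured, the experiments stood clear of each other while the genotypes lay within 0.08 log2 units of each other inside each experiment.

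In HoxD the genes next to Hoxd11 fell too. Hoxd10, used in the thigh and lower limb and in motor neurons of the hindlimb, read 10.66 and 10.62 in experiment 1 and 9.92 and 10.01 in experiment 2, a fall by 0.68 (limma adjusted p = 6.01e-06). Hoxd9, one of the number 9 genes that act in the upper limb, read 9.55 and 9.44 and then 8.92 and 8.89, a fall by 0.59 (limma adjusted p = 1.68e-05). Neither gene's experiments overlapped. Hoxd12, a gene of the late distal limb bud, read 8.42 and 8.30 in experiment 1 and 8.01 and 7.82 in experiment 2, falling by 0.45 (limma adjusted p = 0.000449). Hoxd13, the gene of digit patterning whose mutation causes synpolydactyly in people, read 10.57 on both arrays of experiment 1 and 10.20 and 10.06 in experiment 2, falling by 0.44 (limma adjusted p = 0.000168). All 5 measured genes from Hoxd9 to Hoxd13 were thus lower on each array of experiment 2 than on either array of experiment 1.

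The run of falling genes in HoxD stopped at Hoxd8. Hoxd8, which lies next to Hoxd9 in the cluster, read 8.87 and 8.85 in experiment 1 and 8.86 and 8.88 in experiment 2, a difference of 0.01 (SE 0.06, limma adjusted p = 0.932). Hoxd4, a gene of the neck vertebrae, differed by -0.05 (limma adjusted p = 0.536). Beyond these, Hoxd3, which acts in the first neck vertebrae, fell by 0.33, from 8.09 and 8.22 to 7.83 and 7.81 (limma adjusted p = 0.00117). Hoxd1 at the 3′ end, known in mouse for its role in pain-sensing neurons, rose by 0.25, from 6.11 and 6.21 to 6.45 and 6.36 (limma adjusted p = 0.00722). Hoxd1 lay below the 25th percentile of all probe sets and did not pass without the wildtype array of experiment 1 or that of experiment 2. RefSeq gene models of Hoxd10 and Hoxd11, of Hoxd3 and Hoxd4, of Hoxb3 and Hoxb4, and of Hoxa3 with Hoxa4 and Hoxa5 overlap, so that their probe sets may read shared transcripts.

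In HoxA, Hoxa10 moved against its neighbours. Hoxa10, which shapes the thigh bone and is also known for its role in the uterus, rose from 9.74 and 9.86 in experiment 1 to 10.17 and 10.33 in experiment 2. The rise of 0.45 (SE 0.07, limma adjusted p = 0.000302), or 1.36-fold, was the largest rise of any Hox gene. Hoxa9 on one side of it, of the number 9 group that sets up the posterior limb bud, fell by 0.57, from 9.64 and 9.50 to 8.98 and 9.02 (limma adjusted p = 2.91e-05), and Hoxa11 on the other side fell as given above. Hoxa10 thus was higher, and both its measured neighbours lower, on each array of experiment 2 than on any array of experiment 1. Hoxa13, the HoxA gene of hand and foot, read 7.73 and 7.54 in experiment 1 and 7.58 and 7.54 in experiment 2. Its difference of -0.07 (SE 0.07) did not pass (limma adjusted p = 0.446), the experiments overlapped, and it was the only one of the 9 genes of the 5′ HoxA and HoxD ends that passed in neither direction. Of those 9 genes, Hoxa13 alone lay below the 50th percentile of all probe sets.

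Among the HoxA genes with lower numbers, Hoxa5, which acts in the anterior forelimb bud and the lung, fell by 0.37, from 9.87 and 9.76 to 9.56 and 9.35 (limma adjusted p = 0.00187). Hoxa3, needed for the thymus and parathyroid, fell by 0.26, from 8.02 and 8.11 to 7.83 and 7.79 (limma adjusted p = 0.00467). Hoxa2, Hoxa4 and Hoxa7 differed by -0.07 to 0.10 and did not pass.

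Of the 6 HoxC genes measured, 3 fell. Hoxc10, a gene of the hindlimb region, was at 9.21 and 9.33 in experiment 1 and at 8.86 and 8.77 in experiment 2, a fall by 0.45 (limma adjusted p = 0.000152). Hoxc6, a gene of the forelimb level of the trunk, was at 8.79 and 8.67 and then at 8.46 and 8.22, a fall by 0.39 (limma adjusted p = 0.00189). Both were separated between the experiments. Hoxc9, which in the flank and hindlimb region represses the forelimb gene Tbx5, fell by 0.25, from 8.136 and 8.309 to 7.956 and 7.996 (limma adjusted p = 0.0112); it did not pass without the transgenic array of experiment 1 or without the wildtype array of experiment 2. Hoxc4 and Hoxc5, active at forelimb level, differed by -0.08 and -0.03, did not pass and overlapped between the experiments. Hoxc4 read 8.34 and 8.27 in experiment 1 and 8.37 and 8.09 in experiment 2, so that its lowest value was that of the transgenic array of experiment 2, and without the wildtype array of that experiment it fell by 0.22 and passed. Hoxc5 read 8.50 and 8.44 and then 8.53 and 8.36, and Hoxc13, a gene of hair and nails, differed by 0.05 without passing.

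HoxB, a cluster less tied to limb patterning than HoxA and HoxD, had differences between -0.34 and 0.24. Hoxb8, whose misexpression duplicates the mouse forelimb in mirror image, was its single gene that fell, by 0.34, from 7.00 and 6.98 to 6.67 and 6.63 (limma adjusted p = 0.000514); it lay below the 25th percentile of all probe sets. Hoxb9 rose by 0.24, from 6.99 and 6.98 to 7.24 and 7.20 (limma adjusted p = 0.00518), opposite to the other 3 genes of number 9. Hoxb2, known from the hindbrain, rose by 0.22, from 8.23 and 8.19 to 8.47 and 8.40 (limma adjusted p = 0.00956), and did not pass without the transgenic array of experiment 1 or without the wildtype array of experiment 2. For all 3 genes both arrays of one experiment lay above both of the other. The remaining 6 genes, Hoxb1, Hoxb3, Hoxb4, Hoxb5, Hoxb6 and Hoxb13, differed by -0.11 to 0.04 and did not pass.

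Read by paralog number, number 11 had both of its measured genes lower, number 9 had 3 of 4 lower and 1 higher, number 10 had 2 of 3 lower and 1 higher, and number 12 had its 1 measured gene lower. At number 13 Hoxd13 alone of 4 genes fell. Hoxa13, Hoxb13 and Hoxc13 lay below the 50th percentile of all probe sets, Hoxb13 also below the 25th, and Hoxd13 lay above the 50th. The part of low signal in this was not tested. At number 4, 0 of 4 genes passed, and at number 3, 2 of 3 fell. Paralogs from different clusters thus did not always move together, as Hoxa10 against Hoxc10 and Hoxd10, and Hoxb9 against Hoxa9, Hoxc9 and Hoxd9, show.

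Genes that work with or upstream of Hox genes were mixed between the experiments. The counts of the lists below are by limma's adjusted p, by which 17.4% of all probe sets rose and 18.7% fell (36% in all). Of 9 Hox cofactors, homeodomain proteins that bind DNA together with Hox proteins, 1 rose and 3 fell, a share near that of all probe sets. Pknox2 fell by 0.28, from 7.98 and 7.97 to 7.71 and 7.67 (limma adjusted p = 0.00185), and Pbx2 by 0.22, while Meis2 differed by 0.22 without passing. Of 17 genes that act on Hox transcription in the limb, 3 rose and 4 fell, also near that share, with a median of -0.02. Hand2, a posterior limb bud factor that acts with Hox proteins on Shh, fell by 0.94, from 8.57 and 8.40 to 7.61 and 7.47 (limma adjusted p = 2.45e-06). Gli1, a readout of hedgehog signalling, differed by -0.72, Rarg, a retinoic acid receptor, by -0.62, and Cyp26b1, which breaks retinoic acid down in the distal limb, by -0.61, and all 3 passed. The 3 that rose were Rarb, another retinoic acid receptor, by 0.61, Grem1 by 0.32 and Gli3 by 0.21. Shh itself, at values between 6.83 and 6.95, differed by less than 0.01.

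Polycomb and Trithorax proteins, which keep Hox clusters silent or active, had 9 of 16 lower and 2 higher, where 18.7% of all probe sets were lower and 17.4% higher, with a median of -0.18 against -0.01 for all probe sets. Cbx2, a Polycomb subunit that binds methylated histone H3, fell by 0.74, from 9.44 and 9.33 to 8.72 and 8.58 (limma adjusted p = 7.29e-06). Kdm6b, which removes the Polycomb histone mark, differed by -0.66, the Polycomb subunit Ring1 by -0.56 and Phc2 by -0.48, and all 3 passed. Genes on the flanks of the clusters did not share one direction, with 3 of 11 measured higher and 1 lower, a share near that of all probe sets. Evx1, a homeobox gene beside the 5′ end of HoxA, fell by 0.46, from 7.92 and 7.78 to 7.35 and 7.42 (limma adjusted p = 0.000142). Mtx2, a mitochondrial import gene on the 3′ side of HoxD, rose by 0.54, from 10.31 and 10.27 to 10.80 and 10.86 (limma adjusted p = 2.44e-05), next to Hoxd1. Skap2 beside the 3′ end of HoxA rose by 0.27 and Lnpk beyond the 5′ end of HoxD by 0.19.

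Of 12 genes reported as targets or partners of Hox proteins in the limb, 2 rose and 5 fell between the experiments, where 17.4% of all probe sets rose and 18.7% fell. Epha3 and Epha7, receptors of ephrins involved in limb cell sorting and nerve guidance, were among them: Epha3 rose by 0.93, from 8.18 and 8.38 to 9.17 and 9.24 (limma adjusted p = 2.30e-06), and Epha7 by 0.66. Sall1, a zinc finger factor of the distal limb, fell by 0.53. This list is not separate from the others. It shares Shh and Hand2 with the genes that act on Hox transcription, and Sall1, Sall3 and Msx2 with the distal limb markers below.

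Some lists of markers of place, tissue and age moved with the experiments, to be read against 17.4% of all probe sets higher and 18.7% lower. Of 8 distal limb markers 6 fell and 1 rose (median -0.33), of 7 proximal limb and girdle markers 2 rose and 0 fell (median 0.19), and of 7 limb mesenchyme markers 5 fell (median -0.40); the distal and mesenchyme lists share Msx1, Lhx2 and Lhx9. The proximal list shares genes with the Hox cofactors. Its median was 0.29 in the wildtype arrays and 0.06 in the transgenic arrays, while the distal medians were -0.37 and -0.29. The forelimb factor Tbx5 fell by 0.74, and the hindlimb factors Tbx4 and Pitx1 by 0.82 and 0.70, so that markers of both limbs were lower in experiment 2, while Isl1, an early hindlimb factor also made by motor neurons, rose by 0.38. All 5 ectoderm markers rose (median 0.44), and of 8 genes that rise as the limb matures 6 rose (median 0.45), led by the matrix proteoglycans Dcn by 1.22 and Epyc by 0.99. Of 5 measured genes that fall with age, 2 fell, among them Igf2bp1 by 0.60. The other lists had few calls or calls in both directions: 2 of 7 neuronal markers rose and 1 fell, 1 of 4 Schwann cell markers rose, 2 of 5 myogenic markers rose and 2 fell, 1 of 4 endothelial and 1 of 4 erythroid markers rose and 1 of each fell, and 0 of 3 mesothelial markers passed. The part of tissue makeup or exact stage in the Hox differences was not tested.

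**Figure D3:**
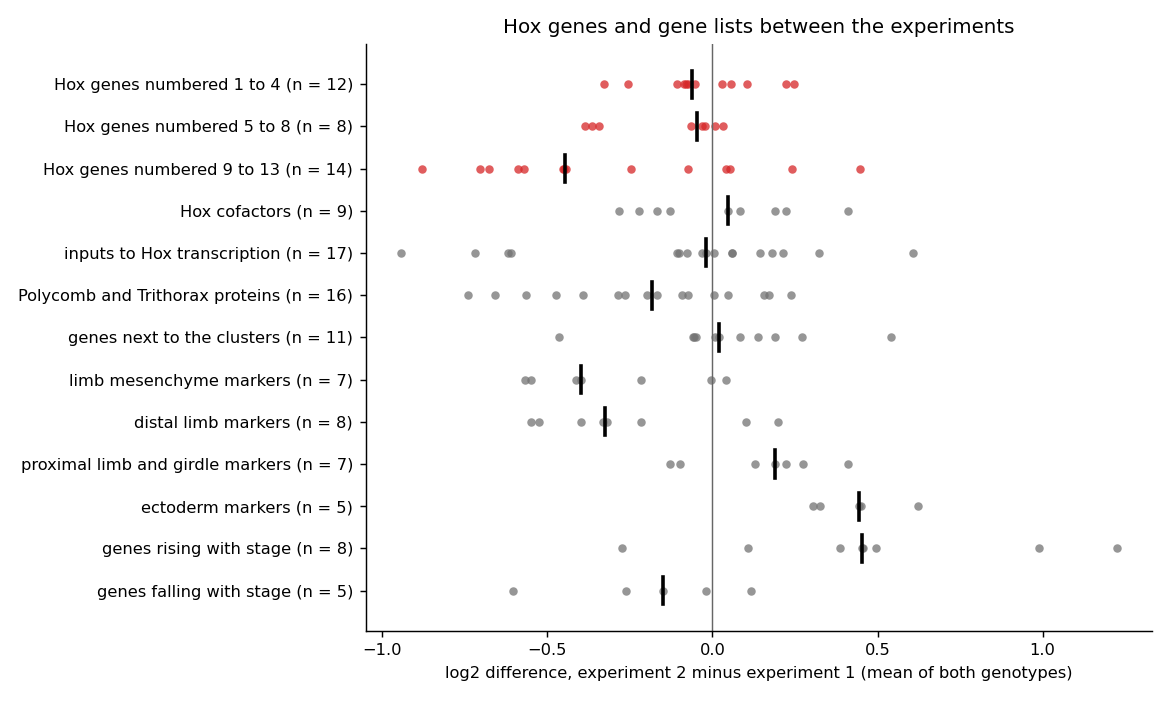
Log2 difference, experiment 2 minus experiment 1 (x axis, log2 units, mean of both genotypes), for Hox genes by paralog number (red) and for 10 other gene lists (grey); each point is a gene and the black bar is the median of its list. Hox genes numbered 9 to 13 have a median of -0.45, limb mesenchyme markers -0.40, and genes rising with stage 0.45.

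Between the genotypes the Hox genes differed little. All 34 differences of transgenic minus wildtype lay between -0.18 (Hoxc6) and 0.14 (Hoxa10), with a median of -0.03, against -0.01 for all probe sets. By limma, 0 of 34 passed an adjusted p of 0.05, and 0 had an unadjusted p under 0.05, which 0.194% of all probe sets did. No Hox gene had a log2 difference beyond 0.2 with an unadjusted p under 0.05, against 0.188% of all probe sets. The medians were -0.01 for numbers 1 to 4, -0.07 for numbers 5 to 8 and -0.03 for numbers 9 to 13, and -0.06, -0.02, -0.06 and -0.02 in HoxA, HoxB, HoxC and HoxD.

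With the experiment as a replicate block, which takes the differences between the experiments out, 0 of 34 passed the adjusted threshold in limma (0.273% of all probe sets did), and the block left 0 of 34 past the rule of 0.2 log2 units as well (1.55% of all). At an unadjusted p under 0.05 in the blocked limma fit there were 6 genes lower (17.6%, against 3.4% of all probe sets) and 1 higher (2.94%, against 4.52%). The 6 were Hoxc6, Hoxc4, Hoxd12, Hoxa5, Hoxa4 and Hoxb1 and the 1 was Hoxa10, with adjusted p between 0.354 and 0.625 in limma, so none is a call.

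Hoxc6 had the lowest difference, at -0.18 (SE 0.06 with the block, limma adjusted p = 0.354). The transgenic array was lower than its wildtype partner by 0.12 in experiment 1 and by 0.24 in experiment 2, but the genotypes overlapped, because the gap between the experiments was larger. Hoxc4 differed by -0.18 (limma adjusted p = 0.41 with the block), with transgenic minus wildtype at -0.07 and -0.28, and here both transgenic arrays lay below both wildtype arrays. For Hoxd12 the differences were -0.12 and -0.20, and for Hoxa5 -0.11 and -0.21. Hoxa10 was the reverse, with 0.12 in experiment 1 and 0.16 in experiment 2 (mean 0.14, limma adjusted p = 0.533 with the block). Hoxa10 was thus the gene with the highest difference in both comparisons, while the genotypes still overlapped.

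Counted over the 34 genes, both transgenic arrays lay below both wildtype arrays for 7 (20.6%, against 12.7% of all probe sets), namely Hoxa4, Hoxa7, Hoxa13, Hoxb1, Hoxb4, Hoxc4 and Hoxc5, and above them for 1, Hoxb6 (2.94%, against 5.67%). The difference was negative in both experiments for 17 genes (50%, against 30.5% of all probe sets), positive in both for 4 (11.8%, against 22.4%) and of opposite sign for 13 (38.2%, against 47%). The 4 genes of number 4 all had a negative mean difference and the 3 of number 10 all a positive one. None of these counts carries a test, and for the genes with the largest fall between the experiments the genotypes differed by less than that fall: Hoxd11 by -0.05 and -0.04 and Hoxd10 by -0.04 and 0.09 in experiments 1 and 2.

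**Figure D4:**
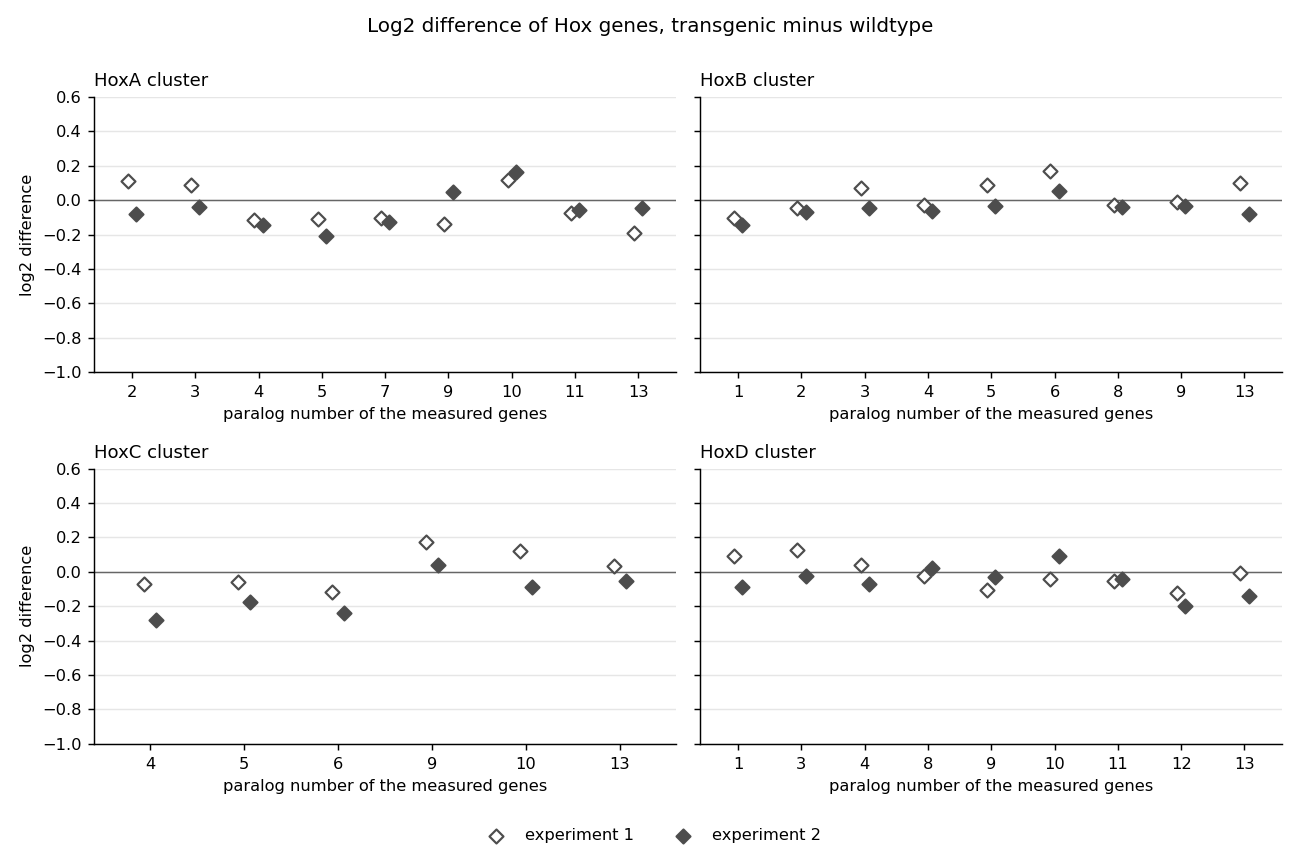
Log2 difference of 33 of the 34 Hox genes, transgenic minus wildtype (y axis, log2 units, on the same scale as the plot of differences between the experiments), by cluster (panels) and paralog number (x axis). Open diamonds are experiment 1 and filled diamonds experiment 2; all points lie within 0.3 log2 units of 0, the lowest being Hoxc4 in experiment 2 at -0.28.

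Of the Hox cofactors, the genes acting on Hox transcription, the flanking genes and the Polycomb and Trithorax list, 0 passed the adjusted threshold between the genotypes in limma, with or without the block. Outside these, Isl1 among the hindlimb factors and Dcn, Matn1 and Epyc among the genes rising with stage passed with the block only, all higher in the transgenic pools. With the block 0.273% of all probe sets passed. The 8 genes rising with stage had a median genotype difference of 0.32 (7 above 0, 1 below), against -0.01 for all probe sets. The 3 mesothelial markers had a median of 0.71 in experiment 1 and -0.02 in experiment 2. The part of stage or tissue makeup in the genotype differences was not tested. Whether the difference between experiments depended on genotype could not be tested, because each genotype had 1 array in each experiment.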

How the data were processed

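Whole fore- and hindlimb RNA of E12.5 wildtype and SHOX-transgenic littermates was hybridised to 4 Affymetrix arrays. The authors regrouped the probes by Entrez gene with a custom definition file and worked in JMP Genomics, where logged perfect-match signals went through quantile normalization and then a mixed model with fixed probe and genotype terms and a random sample term; the deposited values are log2, the base being taken from their range and the study's log2 threshold. Quantile normalization sets the arrays to one distribution, so that a shift of all genes together would not be seen. The genome build, and whether the deposited value per gene is an output of that model or of another summary, are not stated in the sources used here. Scanner files were not used, and signal over background is not known.

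After 64 control probe sets were left out, 16492 were tested with no filter. The platform annotation named 15270 and RefSeq named 988 more by Entrez ID; 234 stayed unnamed. Fits used limma 3.58.1 (lmFit, eBayes) in R 4.3.3 with Benjamini-Hochberg adjustment over all probe sets, with genotype or experiment as the only term; call rules were an adjusted p under 0.05, and a log2 difference beyond 0.2 with an unadjusted p under 0.05. Arrays of one experiment deviated together from their genotype means (r = 0.857), and the replicate block is the shared title suffix, read as the hybridization experiment, which the labels do not spell out. The experiment fit and the blocked genotype fit were tested on simulated arrays with independent noise, unlike the real arrays that share an experiment. The genotype fit without the block was not tested this way. Alternatives were centring, repeated quantile normalization, 25th and 50th percentile filters, an intensity trend, no moderation, other thresholds and leaving out each array.

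All 34 Hox genes enter the counts and medians. Array values were given for those past a rule in either comparison and for numbers 9 to 13 of HoxA and HoxD. They were also given for Hoxc4, Hoxc5, Hoxc9 and Hoxc10, and for the largest difference each way. Up to 4 genes of each other list were named by size. Of the genes that act on Hox transcription, Shh and those that rose were named as well. The members, lists and comparisons were chosen with earlier results of these data known. Hnrnpa1, Prac1 and Lin28b of the lists were not analysed here, and 1 Hox gene and 1 cofactor are not reported individually here. Promoter windows come from RefSeq (GRCm38.p6); where windows on opposite strands overlapped, the letters matched in 1670 of 1670.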

Additional observations from a re-analysis of the deposited data

Results flagged for a closer look

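For 6 of the 34 Hox genes the difference of experiment 2 against experiment 1 had opposite signs in the wildtype and the transgenic arrays, and for none of these 6 did the difference pass in limma. Opposite signs were found for 17.6% of the Hox genes, against 23.5% of all probe sets. Hoxb6 differed by 0.0869 log2 units in wildtype and by -0.0253 in transgenic arrays, and Hoxb13 by 0.129 and -0.0493. For Hoxc4 the values were 0.0241 and -0.183, and for Hoxc5 0.0270 and -0.0889. Hoxd4 differed by 0.00071 and -0.105, and Hoxd8 by -0.0128 and 0.0292. With 1 array for each genotype in each experiment, the dependence on genotype was not tested.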

How the results depend on the processing

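Between the experiments, the 14 lower and 4 higher Hox genes were the counts under centred arrays, repeated quantile normalization and genotype as a second term. Analysis of variance without moderation left 0 lower and 0 higher by adjusted p, and 3 higher and 10 lower by the rule of 0.2 log2 units. A 50th percentile filter left 2 higher by either rule, and a difference beyond 0.4 left 1 higher and 8 lower. The shares of all probe sets without moderation, with this filter, beyond 0.4 or with 1 array left out are not given here. Leaving out 1 array each gave 2 to 4 genes higher, 2 of them without the wildtype array of experiment 2, and 13 to 15 lower over both rules. The median moved to -0.348 for all Hox genes and -0.311 for HoxA above the 50th percentile, and to -0.0423 for HoxA with centred arrays. With 1 array left out the medians ran from -0.138 to -0.0326 for all Hox genes, -0.149 to 0.00198 for HoxA, -0.515 to -0.349 for HoxD, -0.109 to 0.0238 for numbers 1 to 4, -0.506 to -0.361 for numbers 9 to 13, and the differences of Hoxa13 from -0.169 to 0.0203, Hoxc4 from -0.219 to 0.0601 and Hoxc5 from -0.117 to 0.0554. Hoxc5 also changed sign to 0.000485 with centred arrays and 0.0146 with repeated quantile normalization. Of all probe sets, 2867 rose and 3078 fell by adjusted p, and 3498 and 2565 with centred arrays.

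Between the genotypes, 0 Hox genes passed the adjusted threshold under any alternative run, and the replicate block changed no call of a Hox gene. Medians moved to -0.0520 for all Hox genes, -0.0471 for HoxD, -0.115 for numbers 5 to 8 and -0.0473 for numbers 9 to 13 above the 50th percentile, and to -0.0314 for HoxD and -0.113 for numbers 5 to 8 above the 25th. Hoxd1 turned to -0.00841 with centred arrays. Leaving out 1 array unbalances the experiments, so that the differences between them enter the genotype difference: the medians then ran from -0.134 to 0.0413 for all Hox genes, -0.139 to -0.00491 for HoxA, -0.0537 to 0.0356 for HoxB, -0.21 to 0.0162 for HoxC, -0.281 to 0.179 for HoxD, -0.0770 to -0.0192 for numbers 1 to 4, -0.145 to 0.0470 for numbers 5 to 8, -0.271 to 0.186 for numbers 9 to 13, -0.366 to 0.246 for the 5′ HoxA and HoxD genes, and the single genes that changed sign ran as follows, Hoxa3 -0.137 to 0.185, Hoxa5 -0.366 to 0.0482, Hoxa9 -0.379 to 0.284, Hoxa10 -0.0949 to 0.374, Hoxa11 -0.423 to 0.291, Hoxb2 -0.174 to 0.0611, Hoxb8 -0.209 to 0.141, Hoxb9 -0.149 to 0.105, Hoxc6 -0.402 to 0.0457, Hoxc9 -0.0498 to 0.263, Hoxc10 -0.261 to 0.296, Hoxd1 -0.164 to 0.172, Hoxd3 -0.149 to 0.256, Hoxd9 -0.381 to 0.246, Hoxd10 -0.348 to 0.395, Hoxd11 -0.489 to 0.395, Hoxd12 -0.404 to 0.0831, Hoxd13 -0.331 to 0.179. A lone array was assumed to vary like the others. Of all probe sets, 22 rose and 9 fell by the rule of 0.2 log2 units, 18 and 19 with centred arrays and 27 and 8 with repeated quantile normalization. Of the 34 Hox genes, 30 lay above the 25th and 20 above the 50th percentile. The cause of each change was not tested beyond what its construction shows.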
